A study of Mus musculus with 2 samples.

Results

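The genes described here encode 45 proteins of the large subunit of the cytosolic ribosome, from Rpl3 to Rpl41 together with the stalk proteins Rplp0, Rplp1 and Rplp2. They were chosen by name, as a family, from a list of Ensembl identifiers in a fixed order of symbols. The rule uses no measured value, though the list was drawn up with earlier results of these data known. Of the 45 genes, 25 had a row in the tables analysed here, which listed 12530 mouse genes in all, and 20 had none. The values are from 2 ribosome profiling libraries of mouse spinal cord. The library called WT was of wild-type mice, and the library called HET was of mice heterozygous for the C201R allele of Gars (GarsC201R/+), the gene of glycyl-tRNA synthetase. Lysates of 3 animals of a genotype were pooled for each, and the labels name no treatment. The sources used here do not give strain, age or sex. A single library per genotype leaves every difference without a replicate check, and no test between genotypes was run. Each interval below covers counting error only and compares these libraries, not the genotypes.

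The large subunit holds the catalytic centre that joins amino acids, the tunnel through which the new protein leaves, and a flexible stalk that recruits elongation factors. Its proteins are made in balanced amounts for assembly with ribosomal RNA, and in most tissues their mRNAs are among the most translated. Their mRNAs typically begin with a run of pyrimidines, the 5′ terminal oligopyrimidine (TOP) tract, through which mTOR signalling controls their translation. Ribosomal protein genes also have many processed pseudogenes, whose sequences can be nearly the same as that of the parent mRNA. A short ribosome footprint from such a gene can match several places in the genome.

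The gene reads summed to 7770935 in the WT and 3491159 in the HET library, a 2.23-fold difference in depth. The sources used here do not say how reads with several matches were treated, so a member's own reads could not be told from those of near-identical copies. The tables hold 1 read total per gene, with no RNA library beside it, so mRNA amount and translation could not be told apart. In bulk tissue, fewer cells of a type and less RNA per cell could not be told apart either. The spinal cord's own marker genes were not analysed here, because the identifiers of other genes were not paired with symbols.

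The 20 members with no row were spread over the whole subunit. Both proteins that bind the 5S ribosomal RNA, Rpl5 and Rpl11, which also bind the p53 regulator Mdm2, were not listed. Of the 4 stalk genes, Rpl12, at the base of the stalk, was not listed. Of the 8 genes near the catalytic core, the tRNA sites or the face towards the small subunit, 3 were not listed. These were Rpl10, which joins late in assembly, Rpl10a of the L1 stalk and Rpl36a, at the tRNA exit site. Of the 9 genes of the exit tunnel and its rim, the 5 not listed were Rpl17, whose extension lines the tunnel, and the rim proteins Rpl19, Rpl23a, Rpl31 and Rpl35. The others lie in the body of the subunit, among them Rpl13, Rpl15, Rpl21, Rpl27, Rpl35a and Rpl38. The lowest listed level was 0.183 RPKM (reads relative to the length of the gene and the size of the library) in the WT and 0.501 RPKM in the HET library. A missing row is not a measured 0, and these genes were not analysed further.

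The 25 listed members held few reads. Together they had 8774 of the gene reads in the WT library, a share of 0.113% (95% Wilson interval 0.111% to 0.115%). In the HET library they had 3240 reads, a share of 0.0928% (0.0897% to 0.0961%). Rpl4, Rpl8 and Rpl24 alone took 79.2% of the members' reads in the WT and 76.5% in the HET library, and the other 22 members shared 1826 and 761 reads. The median member had 59 WT reads against 206 for the median gene, and 32 HET reads against 96. The members are short, with a median length of 914 nt against 3092 nt over all genes (the length behind the deposited RPKM). Their median level per length was close to that of the median gene, at 8.02 against 8.40 RPKM in the WT and 9.14 against 8.63 RPKM in the HET library.

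Levels per length differed widely between members. The highest member exceeded the lowest by 622-fold in the WT and by 498-fold in the HET library. Rpl8, a protein at the catalytic centre, had the highest RPKM in both libraries, 417 (95% Poisson interval 402 to 433) in the WT and 462 (438 to 487) in the HET library. Rpl4, whose long extension lines the exit tunnel, came next, with 254 RPKM (245 to 263) and 144 RPKM (134 to 155). Among the 12530 genes Rpl8 ranked 101 and 82 and Rpl4 ranked 202 and 400, in the WT and the HET library respectively. No other member came near these levels. In the WT library Rpl32 came after these at 65.1 RPKM (57.4 to 73.4). Rpl13a, Rplp2, Rpl26 and Rpl24 followed between 33.1 and 29.8 RPKM, with intervals that overlapped one another. In the HET library Rpl13a came after these, at 32.0 RPKM (26.5 to 38.3), with an interval that overlapped those of Rplp2 and Rplp1 next to it. At the low end, Rpl36 had 0.670 RPKM from 2 reads in the WT and 2.23 RPKM from 3 reads in the HET library. Rpl41, which encodes a very small basic protein at the subunit interface, had 0.882 RPKM from 4 reads and 1.46 RPKM from 3 reads. Rpl39, a small protein inside the tunnel, had 2.31 RPKM from 11 reads in the WT library and was lowest in the HET library, with 0.928 RPKM from 2 reads. Only 12 of the 25 listed members lay above the median RPKM of all genes in the WT library and 15 in the HET library. Rpl24, a protein of a bridge to the small subunit, had a length of 4920 nt behind its RPKM, 95.3% of the span of the gene in RefSeq. Its 1143 reads in the WT library therefore gave only 29.8 RPKM.

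**Figure D1:**
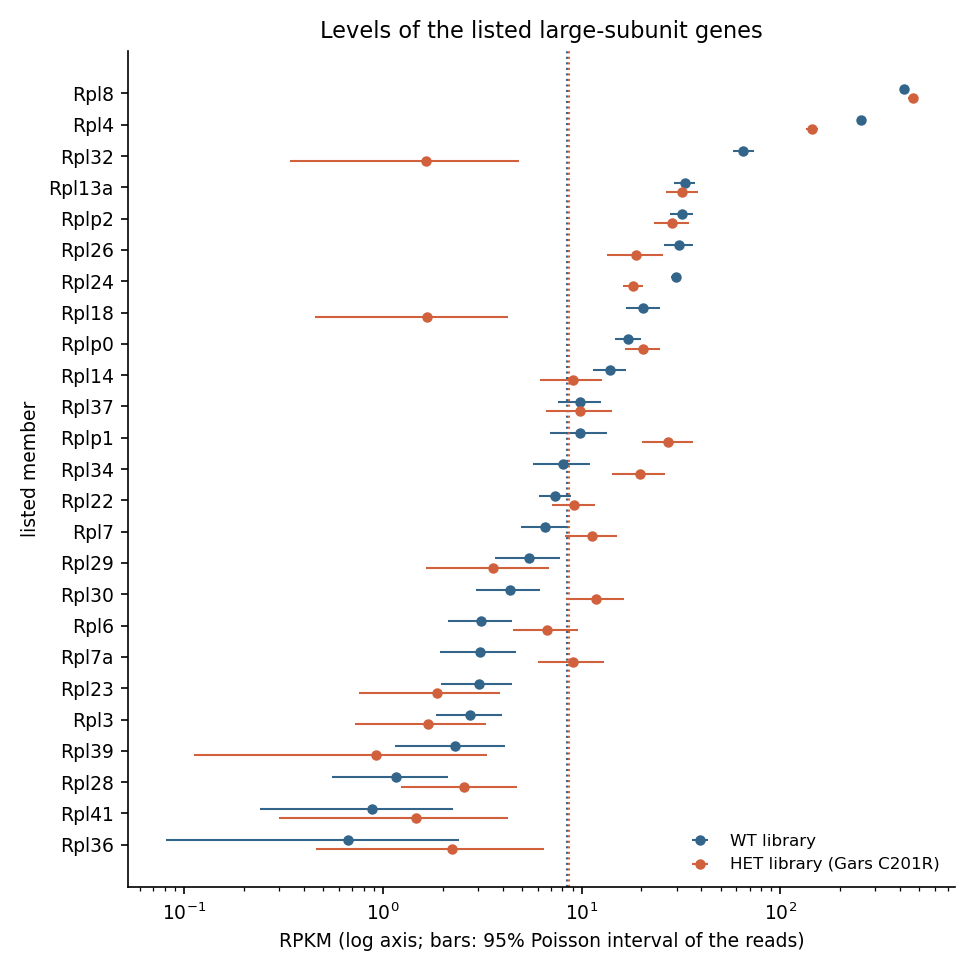
RPKM of the 25 listed members on a log axis, with 1 point per library and bars for the 95% Poisson interval of the reads; dotted lines mark the median RPKM of all genes, 8.40 in the WT and 8.63 in the HET library. Rpl8 and Rpl4 stand above all other members in both libraries, and Rpl32 and Rpl18 are far apart between the libraries.

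Promoter sequences from RefSeq (GRCm38.p6, 250 bases before to 50 after an annotated start, the first entry of each gene) were held for 33 of the 45 members, 17 of them listed. None was held for Rpl32, the listed member with the lowest ratio of HET over WT. They are shown because a pyrimidine run at the start is the feature by which the translation of these mRNAs is known to be controlled. The lines below span 45 bases before to 15 after the start, 5′ to 3′ on the strand of the gene. Capitals mark the unbroken run of C and T that contains the start base, and a line with no capitals has a purine there. The lines show Rpl4, Rpl14, Rpl18, Rpl24 and Rpl26, which were lower by 1.5-fold or more in the HET library with a counting interval below equal levels, then Rpl7a with the highest ratio, the stalk gene Rplp2, and Rpl15 and Rpl35, which were not listed.
Rpl4 (chr9:64173342-64173401, plus strand): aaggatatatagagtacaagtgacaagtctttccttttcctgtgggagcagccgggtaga
Rpl14 (chr9:120571472-120571531, plus strand): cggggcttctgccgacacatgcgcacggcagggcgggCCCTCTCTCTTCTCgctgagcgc
Rpl18 (chr7:45718026-45718085, plus strand): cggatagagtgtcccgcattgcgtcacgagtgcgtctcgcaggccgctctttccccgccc
Rpl24 (chr16:55966230-55966289, plus strand): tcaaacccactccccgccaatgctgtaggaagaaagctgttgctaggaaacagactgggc
Rpl26 (chr11:68901521-68901580, plus strand): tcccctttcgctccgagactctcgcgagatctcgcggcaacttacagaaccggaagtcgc
Rpl7a (chr2:26910762-26910821, plus strand): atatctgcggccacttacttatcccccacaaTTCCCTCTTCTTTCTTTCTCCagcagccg
Rplp2 (chr7:141447606-141447665, plus strand): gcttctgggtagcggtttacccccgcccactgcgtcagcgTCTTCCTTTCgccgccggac
Rpl15 (chr14:18270972-18271031, minus strand): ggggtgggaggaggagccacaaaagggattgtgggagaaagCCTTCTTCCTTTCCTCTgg
Rpl35 (chr2:39005117-39005176, minus strand): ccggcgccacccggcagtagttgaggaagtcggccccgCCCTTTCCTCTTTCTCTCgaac

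A run of 5 or more pyrimidines over the annotated start was present in 10 of the 33 member promoters (30.3%) and in 9.95% of 27025 promoters of all genes. In Rpl4 a run of 14 pyrimidines ends 4 bases before the annotated start, and annotated starts can lie some bases from the start used in the tissue. In Rpl18, Rpl13a, Rpl34 and Rpl12 a pyrimidine run begins just after the annotated start. Such runs were not counted, so the shares and groups given here hold for the annotated start only. CCGGAAG, a form of the site of ETS factors, was found on either strand in 13 of the 33 windows of 300 bases (39.4%) and in 9.12% of all promoters. TATAAA was found on either strand in 3 of 33 (9.09%) and in 14.2% of all promoters, and AAGATGG, a form of the YY1 site, in 3 of 33 (9.09%) and 6.48%. Members with and without such a run overlapped in their ratios, and no test was made. The 5 listed members with a run of 5 or more had log2 ratios of HET over WT from -1.23 to 1.47, and 2 of them were above 0. The 12 listed members with a shorter run or none over the annotated start had ratios from -3.55 (Rpl18) to 1.23 (Rpl34). Of these 12, 5 were above 0. Rpl4 and Rpl13a were also among the 12. Rpl32, with no promoter held, is in neither group. Of the members not listed, 5 of 16 had such a run.

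The members lay on both sides of equal levels between the libraries. After TMM scaling to the gene reads, 12 of the 25 log2 ratios were above 0 and 13 below, with a median of -0.041, against a median of 0.0018 over the 12530 genes. The median member was Rpl37, which turned to 0.012 with total-count scaling. The balance differed with depth. The 12 members with 100 or more reads over both libraries had a median of -0.43, with 4 above 0 and 8 below, against -0.034 for all such genes. The 13 members with fewer reads had a median of 1.04, with 8 above 0 and 5 below, against 0.25 for all genes of that depth. A gene was called when its reads in the libraries summed to 100 or more, its ratio was at least 1.5-fold and its 95% counting interval did not hold equal levels. Only 12 members reached that minimum, which rests more on the deeper WT library. Of these, Rpl32, Rpl18, Rpl4, Rpl24, Rpl26 and Rpl14 were called lower in the HET library, beside 11.2% of the 9726 genes tested. Rpl7 was called higher, beside 8.14% of the genes. Without the minimum the same 6 members were called lower, beside 10.8% of all 12530 genes. Then 6 members were called higher, Rpl7a, Rplp1, Rpl30, Rpl34, Rpl6 and Rpl7, beside 11.0% of all genes. Each share of the listed members was 24%. Apart from Rpl7, the members called higher had under 100 reads. Among all 2804 genes of that depth 20.9% were called higher and 9.49% lower, against 5 and 0 of the 13 members there.

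**Figure D2:**
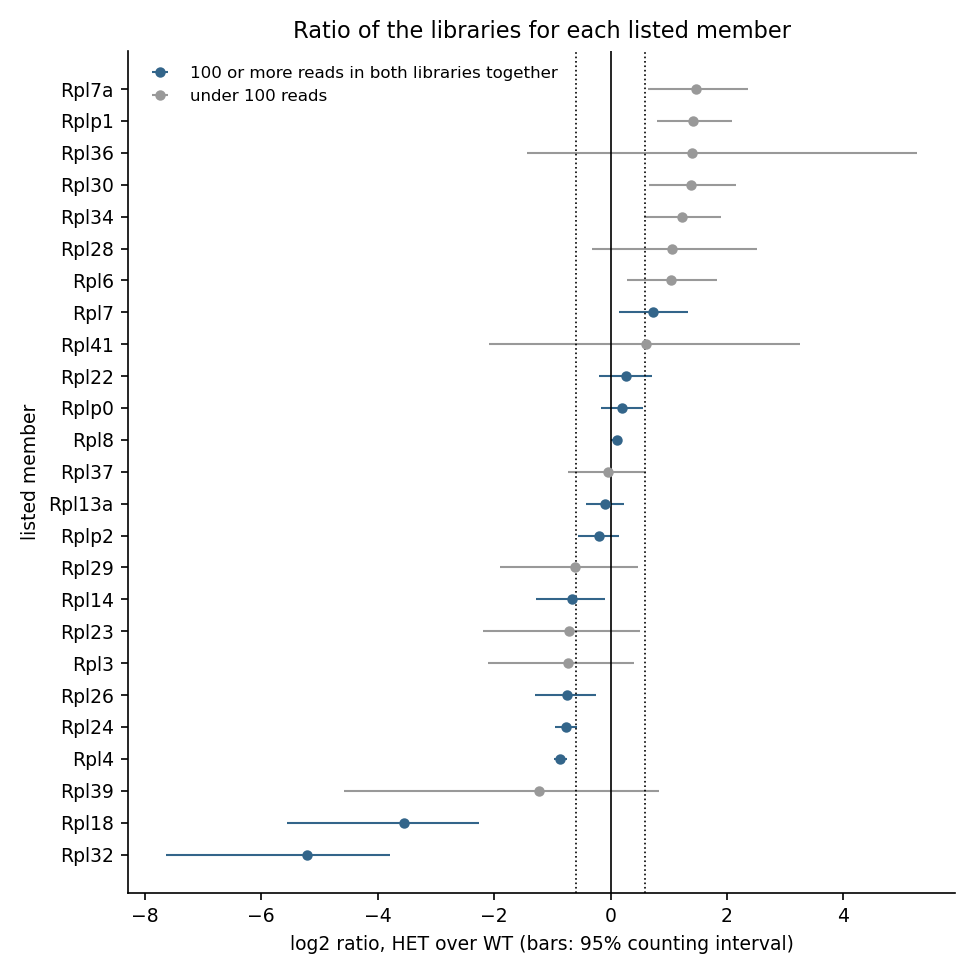
Log2 ratio of the HET over the WT library for each of the 25 listed members, with 95% counting intervals; blue points had 100 or more reads over both libraries, grey points fewer, and dotted lines mark 1.5-fold either way. Rpl32 and Rpl18 lie at -5.21 and -3.55, and every member with a ratio above that of Rpl7 had under 100 reads.

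Rpl32 and Rpl18, both proteins of the body of the subunit, had the lowest and the second lowest ratio of all 9726 genes tested. They reached the minimum of 100 reads only through the WT library, where they were high, so the rank is a description only. Among all genes under 100 reads the lowest ratio was -3.43. Few reads also bound how low a ratio can go, so no conclusion about the rank is drawn from it. Rpl32 (ENSMUSG00000057841, chr6:115805514-115808743 in RefSeq on GRCm38.p6) had 262 reads (95% Poisson interval 231 to 296), or 65.1 RPKM, in the WT library. In the HET library it had 3 reads (0.619 to 8.77), or 1.65 RPKM. Its log2 ratio was -5.21 (95% counting interval -7.63 to -3.78), a level 36.9-fold lower in the HET library. Rpl18 (ENSMUSG00000059070, chr7:45715467-45720835) had 108 reads (88.6 to 130) and 20.4 RPKM in the WT library, and 4 reads (1.09 to 10.2) and 1.67 RPKM in the HET library. Its log2 ratio was -3.55 (-5.56 to -2.26), an 11.7-fold lower level. For both genes the intervals of the reads, scaled to RPKM, were far from overlapping. No other listed member differed by more than 3-fold between the libraries.

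**Figure D3:**
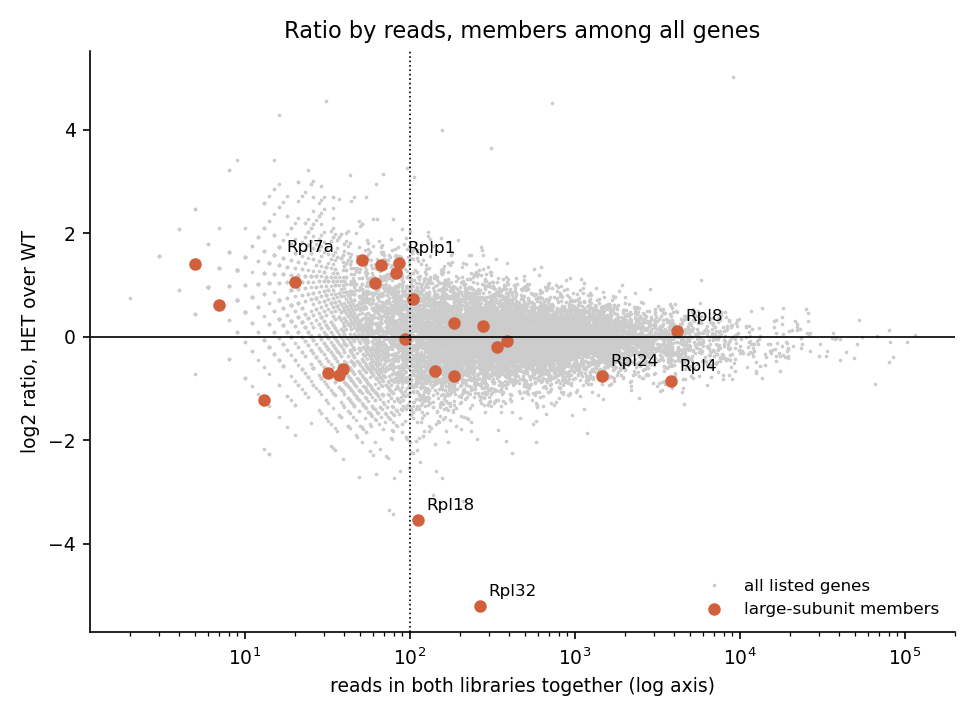
Log2 ratio of the HET over the WT library against the reads in both libraries together (log axis), for all 12530 genes in grey and the 25 listed members in orange; the dotted line marks 100 reads. Rpl32 is the lowest point and Rpl18 the next lowest, Rpl8 lies near 0, and Rpl4 and Rpl24 lie at -0.86 and -0.76.

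In the exit tunnel group, Rpl4 (ENSMUSG00000032399, chr9:64173387-64178562) had 3039 reads in the WT and 780 reads in the HET library. Its log2 ratio was -0.86 (-0.98 to -0.75), a 1.82-fold lower level. Rpl26, at the rim of the tunnel, had 145 and 40 reads and 30.7 and 18.8 RPKM, with a log2 ratio of -0.75 (-1.30 to -0.24). These were the members of this group called lower. Rpl22, an RNA-binding protein of the rim, had 118 and 66 reads, a log2 ratio of 0.26 (-0.19 to 0.71). Rpl39 had 11 and 2 reads, and its ratio of -1.23 had an interval of -4.57 to 0.84. The group thus held ratios on both sides of 0, and the intervals of Rpl22 and Rpl39 included equal levels.

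Among the genes of the catalytic core and subunit interface, Rpl8 (chr15:76904071-76906318) had 2766 reads in the WT and 1385 reads in the HET library. Its log2 ratio was 0.10 (0.0086 to 0.20), a 1.07-fold higher level. Rpl24 (chr16:55966275-55971437) had 1143 and 314 reads and was 1.70-fold lower, with a log2 ratio of -0.76 (-0.95 to -0.58). Per length, Rpl8 exceeded Rpl4 by 1.64-fold in the WT library and by 3.21-fold in the HET library. Rpl3, which reaches towards the catalytic centre, had 29 and 8 reads and a ratio of -0.73 (-2.10 to 0.41). Rpl23, at the site where the assembly factor eIF6 binds, had 25 and 7 reads and a ratio of -0.71 (-2.19 to 0.51). Rpl41, with 4 and 3 reads, had a ratio of 0.60 (-2.09 to 3.25). For the last 3 genes a difference was not detectable at this depth.

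The stalk carries Rplp0 with pairs of Rplp1 and Rplp2, and on stalled ribosomes it is known to activate the stress kinase GCN2. Rplp0 had 181 and 97 reads and 17.1 and 20.3 RPKM, with a log2 ratio of 0.20 (-0.17 to 0.56). Rplp2 had 239 and 97 reads and 31.8 and 28.6 RPKM, a log2 ratio of -0.20 (-0.56 to 0.15). Both intervals included equal levels and lay within 1.5-fold. Rplp1 had only 38 reads (26.9 to 52.2) and 9.78 RPKM in the WT library, and 48 reads (35.4 to 63.6) and 27.3 RPKM in the HET library. Its log2 ratio of 1.42 (0.79 to 2.09) was a 2.68-fold higher level, under the read minimum. The stalk genes thus differed by 3.26-fold in RPKM between Rplp2 and Rplp1 in the WT library, and the intervals of the same genes overlapped in the HET library.

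Of the 13 listed members in the remaining body of the subunit, 7 had a ratio above 0 and 6 below. The 5 of them with a counting interval above equal levels all had between 22 and 59 WT reads. Rpl7a had 22 reads (13.8 to 33.3) in the WT and 29 reads (19.4 to 41.7) in the HET library, a log2 ratio of 1.47 (0.65 to 2.37). Rpl30 had 30 and 37 reads, a ratio of 1.38 (0.67 to 2.15). Rpl34 had 39 and 43 reads and a ratio of 1.23 (0.58 to 1.91). In these genes the reads of the HET library exceeded those of the WT library, which was the deeper one. Rpl6 had 31 and 30 reads and a ratio of 1.04 (0.28 to 1.83). Rpl7, just past the read minimum with 59 and 46 reads, had a ratio of 0.73 (0.15 to 1.32). Rpl14 (chr9:120571517-120574653) had 109 and 32 reads, 13.9 and 9.01 RPKM, and a ratio of -0.66 (-1.28 to -0.087), the smallest of the calls. Rpl13a, a protein that also takes part in translational silencing outside the ribosome, had 270 and 118 reads and a ratio of -0.093 (-0.42 to 0.22). Rpl37 had 64 and 29 reads and a ratio of -0.041 (-0.73 to 0.61). Rpl29 lay just past 1.5-fold with 30 and 9 reads and a ratio of -0.62 (-1.90 to 0.48), an interval that included equal levels. Rpl28 had 10 reads in each library, a ratio of 1.05 (-0.32 to 2.52), and Rpl36 had 2 and 3 reads, a ratio of 1.41 (-1.44 to 5.27). These last genes are too thinly covered to show a difference.

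The calls of Rpl7 and Rpl14 were the least firm. With a 99% interval neither was called. The WT library was also thinned to the depth of the other, in 1 random draw. Rpl7, Rpl14 and Rpl18 then fell under the read minimum, with 78, 78 and 57 reads over both libraries. Rpl22 kept 40 of its 118 WT reads in that draw and was called higher at 0.66, a value that another draw could change.

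The spread of the ratios was wider over the listed members than over all genes. The members had fewer reads, and Rpl32 and Rpl18 lay far from the rest, but the part of each in the spread was not tested. The log2 ratio had an SD of 1.54 across the 25 members, against 0.63 across all genes. Without Rpl32 and Rpl18 it was 0.89. Under 100 reads the values were close, with an SD of 1.00 for the 13 members and 0.94 for all genes. With 100 or more reads they were further apart, at 1.73 for the 12 members and 0.49 for all genes. Only without Rpl32 and Rpl18, left out after seeing the data, did the members there come near all genes, at 0.54. Counting error is also larger for the members, with a root mean square of 0.56, against 0.30 over all genes. Of the members, 19 (76%) differed by 1.5-fold or more in either direction, against 27.2% of all genes. The counting interval excluded equal levels for 13 (52%), against 47.1%. Without Rpl32 and Rpl18 these shares of the members were 73.9% and 47.8%. The log2 RPKM of the libraries had a Pearson correlation of 0.75 over the 25 members (Spearman 0.66), and of 0.95 (Spearman 0.96) over all genes. These are correlations across genes, which share both libraries and are not replicates. The ratio had little relation to length over the members (Pearson -0.013, Spearman -0.10) or to mean log2 RPKM (-0.092 and -0.19).

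The summed reads of the members were 1.26-fold lower in the HET library, a log2 ratio of -0.34 (-0.40 to -0.28). The sum depended on its members of most reads. Without Rpl4 the log2 ratio was -0.12, and without both Rpl4 and Rpl8 it was -0.36. Rpl4 took 34.6% of the members' reads in the WT and 24.1% in the HET library, whereas Rpl8 took 31.5% and 42.7%. The median of the single ratios, -0.041, was much nearer to 0 than the ratio of the sum.

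Pseudogenes were counted as a feature that the choice of members did not use. Whether near-identical copies shaped the read counts is not known, since the treatment of reads with several matches is not given. In the RefSeq gene table for GRCm38.p6, 189 pseudogenes carry the symbol of a member followed by -ps. Pseudogenes under other names were not counted. The 20 members with no row had a median of 4 such pseudogenes and 123 in all, with Rpl31 highest at 23, followed by Rpl21 with 15 and Rpl23a with 13. The 25 listed members had a median of 1 and 66 in all, with Rpl7a highest at 14. Of the 7 members with no such pseudogene, 6 were listed, namely Rpl4, Rpl6, Rpl8, Rpl23, Rpl24 and Rpl41. Rpl11 was the exception. Of the 14 members with 5 or more, 5 were listed. Rpl8, Rpl4 and Rpl24, the members with the most reads, had none, but Rpl41, Rpl23 and Rpl6 had none either and lay between 0.882 and 3.13 RPKM in the WT library. Over the listed members the count had a Pearson correlation of -0.28 with mean log2 RPKM (Spearman -0.30), or -0.19 (Spearman -0.15) without Rpl4 and Rpl8, and of 0.34 with the log2 ratio (Spearman 0.30). Rpl32 has 1 and Rpl18 has 2 such pseudogenes. The part of near-identical copies in the levels, in the missing rows and in the ratios was not tested.

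**Figure D4:**
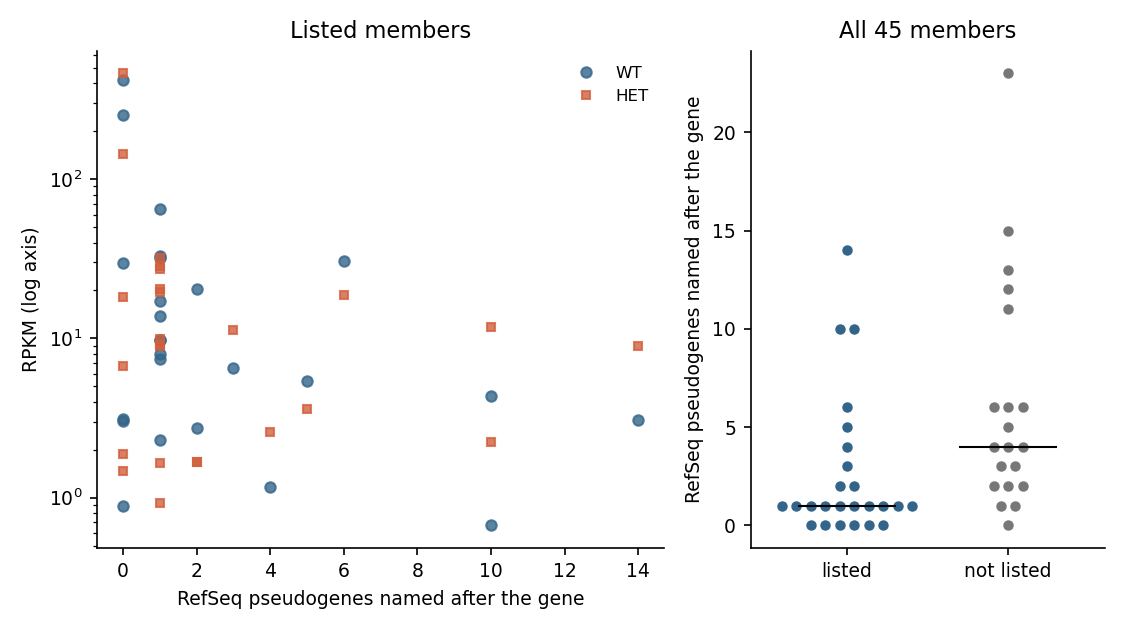
Left, RPKM (log axis) of the 25 listed members in each library against the number of RefSeq pseudogenes named after the gene; right, that number for listed and not listed members, with 1 point per gene and a line at the median. The medians are 1 for listed and 4 for not listed members, with overlapping ranges of 0 to 14 and 0 to 23.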

How the data were processed

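Ribosome-protected fragments of mouse spinal cord were sequenced in 1 wild-type (WT) and 1 Gars C201R heterozygous (HET) library. Per the submitters' processing notes, Bowtie 1.2.2 and HTSeq 0.9.1 were used with GRCm38. Which settings, annotation and strand option they had, and which part of a gene was counted, the sources used here do not say. Each table holds, per the file headers, reads and RPKM by gene. Counts were used as deposited. The deposited RPKM values gave whole-number gene lengths for totals of 7790126 and 3520348 reads.

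The 12530 genes were scaled with TMM in edgeR 4.0.16 (R 4.3.3), without the 18 ERCC spike-ins. Log2 ratios have a prior count of 0.5 and exact conditional binomial (Clopper-Pearson) intervals; count intervals are exact Poisson, shares Wilson, all at 95%. Reads may not be independent molecules. The rule for calls was first tested on simulated data. These held counting error only and the true depth ratio was supplied, so the scaling and differences between libraries were not tested. No model of genotype was fitted.

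The members and lists were chosen with earlier results of these data known. Symbols come from the order of the member list, since the files and the RefSeq tables pair no Ensembl identifier with a symbol. All 45 symbols occur in RefSeq, which does not check that an identifier belongs to its symbol. By the rule, full values were due for members called, of extreme level, of the stalk and at the fold limit; the other listed members are given with their reads and ratio. Role groups were assigned from general knowledge. The lists of assembly factors, other TOP mRNAs and cell type markers were not analysed here. Intervals were computed with scipy 1.17.1, tables with pandas 2.3.3 and numpy 2.4.6, and plots with matplotlib 3.10.9, under Python 3.11.15. Alternatives were total-count, upper-quartile and DESeq2 1.42.0 scaling, TMM without the members, thinning, other minima, intervals, folds and prior counts, and subsets of members.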

Additional observations from a re-analysis of the deposited data

Results flagged for a closer look

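The ERCC spike-ins, synthetic RNAs outside the mouse genes, made up 0.650% (95% Wilson interval 0.642% to 0.659%) of what the HET table lists and 0.00669% (0.00614% to 0.00729%) of what the WT table lists. They took no part in the scaling, so each ratio above is relative to the gene reads.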

How the results depend on the processing

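Total-count, upper-quartile and DESeq2 scaling and TMM without the members each called the same 6 members lower and the same 1 higher. The ratio of Rpl32 lay between -5.21 and -4.85, and that of Rpl18 between -3.62 and -3.29, over the scalings, thinning and a prior count of 2. With a minimum of 20 reads 6 of the 22 members tested were called higher and 6 lower, and with no minimum 6 of 25 each way. Over all genes these settings gave 1321 higher and 1353 lower of 12160, and 1379 and 1353 of 12530. With a minimum of 500 reads 0 of 3 members were higher and 2 lower (Rpl4 and Rpl24), against 158 and 348 of 4480 genes. With a 2-fold limit 0 of 12 members were higher and 2 lower (Rpl18 and Rpl32), against 166 and 267 of 9726 genes. With a 99% interval 0 of 12 were higher and 5 lower, against 737 and 988 genes. The main setting gave 792 and 1087 genes. The subsets of members named next were chosen after seeing the data. Without Rpl4 the log2 ratio of the summed reads was -0.12. Without Rpl32 and Rpl18 the median ratio turned to 0.10 and the ratio of the sum was -0.28. Over the members with no named pseudogene the median was -0.30, and of the 3 of them tested 0 were called higher and 2 lower. Without Rpl4 and Rpl8 the ratio of the sum was -0.36. Levels per coding length were not run, because no protein table was used here. No paired analysis was possible because there is 1 library per genotype, and no replicate could be left out. Low reads limit the precision for many members: 14 of the 25 had fewer than 100 reads in the WT and 21 in the HET library.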
